A study of Mus musculus with 20 samples.

Results

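The report concerns the whole testis in the window of the seminiferous epithelial cycle that runs from stage XII to stage II/III, set against the other 4 windows. It rests on 2 whole testis arrays of that window and 8 of the others, chosen by the labels of fraction and stage, out of 10 whole testis arrays and 20 arrays in the series. The other windows, with 2 arrays each, were X-XII before it, II/III-VI after it, and VI-VIII and VIII-X. All mice were adult males on a mixed 129/C57BL6 background, positive for RiboTag and for Cyp17icre, which tags ribosomes where the Cyp17 driver is active, in Leydig cells. That tag has no part in the whole testis RNA, which was taken from 50 µl of each homogenate before the tagged polysomes were immunoprecipitated (IP) from the rest. Each mouse, in every window, had received the same synchronizing treatment. WIN 18,446, an inhibitor of retinoic acid synthesis, was given at 100 µg per g body weight every day for 7 days from 2 days after birth, and 200 µg all-trans retinoic acid followed at 9 days after birth. Testes were collected 42 to 50 days later, and all groups used here were treated. The labels number 2 replicates per window and do not say whether they came from different animals, so the p-values below measure the spread between these samples.

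In the mouse, a tubule section passes through an ordered series of stages, each with its own set of spermatogonia, spermatocytes and spermatids side by side. Stage XII holds the meiotic divisions, in which spermatocytes become round spermatids. Stages I to III begin with these newly formed spermatids alongside a generation of elongating ones. In a synchronized testis most tubules share neighbouring stages, so the transcript level of the whole organ follows the mixture of germ cells of the window. In such bulk RNA, fewer cells of a type and less RNA per cell cannot be told apart.

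Levels are log2 of the deposited intensity, and differences are on the same scale, so that 1 is a doubling. A gene was tested if its mean in some window was above 8.26, which is the 25th percentile of the levels, and 14368 of 18450 listed genes were. A gene was called if its limma p, adjusted by Benjamini-Hochberg over those 14368 genes, was under 0.05. The 5 arrays of replicate 1 and the 5 of replicate 2 appeared to have been normalized as 2 separate sets, since 11.3% of value pairs were exactly equal within sets and 4 of 645075 across them. Windows were therefore compared within a set. Over the genes tested, the median level of an array lay between 9.88 and 9.94.

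The labels of XII-II/III replicate 1 disagree. Its title and stage field give XII-II/III, which was used, and its source field gives X-II/III. After each set was centred on its own mean, this array had a Pearson's r of 0.70 over genes with XII-II/III replicate 2, of 0.86 with X-XII replicate 2 and of 0.80 with X-XII replicate 1. XII-II/III replicate 2 had an r of 0.80 with X-XII replicate 2 and of 0.48 with X-XII replicate 1. Replicate 1 was thus closer to both arrays of the preceding window than to its own counterpart. This was not particular to that array. XII-II/III replicate 2 was also closer to X-XII replicate 2 than to its counterpart. X-XII replicate 2 was closer to both XII-II/III arrays (0.86 and 0.80) than to X-XII replicate 1 (0.79). The 2 XII-II/III replicates parted in how they stood to VIII-X. Replicate 1 had r of 0.66 and 0.42 with the VIII-X arrays, and replicate 2 had 0.23 and -0.14. Both were negatively correlated with the VI-VIII arrays (r between -0.89 and -0.69) and the II/III-VI arrays (between -0.82 and -0.18). These coefficients describe 14368 genes that are not independent, and centring within a set of 5 pushes arrays of the same set apart.

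**Figure D1:**
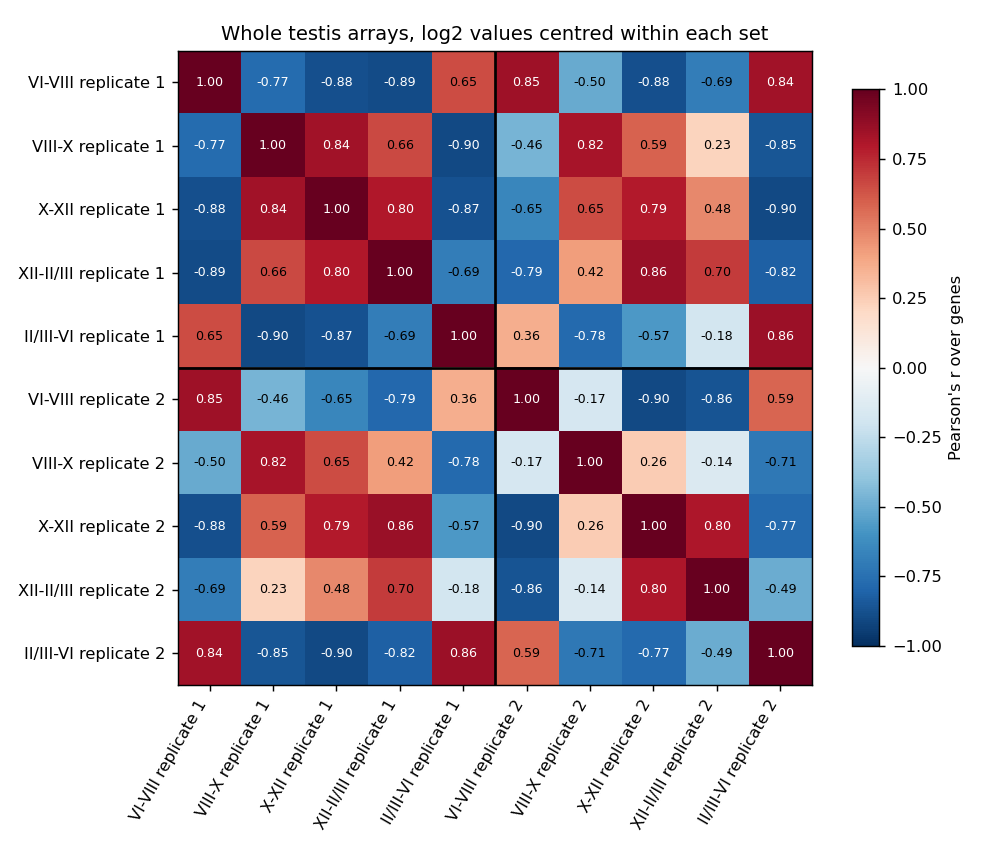
Pearson's r between the 10 whole testis arrays over 14368 genes, after log2 intensities were centred within each set of 5 arrays; rows and columns are arrays in cycle order, and the black lines divide the sets. XII-II/III replicate 1 is closer to X-XII replicate 2 (0.86) than to XII-II/III replicate 2 (0.70). X-XII replicate 2 is likewise closer to both XII-II/III arrays (0.86 and 0.80) than to X-XII replicate 1 (0.79).

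Against the mean of the other 4 windows, 947 genes were higher and 636 lower in XII-II/III, which is 6.59% and 4.43% of the genes tested and 11% in all. The differences were mostly small for the higher genes, with quartiles of 0.27, 0.38 and 0.51, and larger for the lower ones, with quartiles of -0.71, -0.48 and -0.35. A change of at least 1 was reached by 13 higher and 67 lower genes. The lowest adjusted p from limma was 0.0197, and 4052 genes had an unadjusted p under 0.05. The 2 sets gave the same sign for 9986 genes, or 69.5%. The calls needed both XII-II/III arrays. Without replicate 1, limma called 0 genes, with 3549 at an unadjusted p under 0.05, and without replicate 2 it called 0, with 2233 at that level. Treating the 8 other arrays as 1 group, so that their differences between windows count as error, also left 0 called and 609 at an unadjusted p under 0.05. Among the arrays of other windows, the count was 506 when VIII-X replicate 2 was left out, 520 for X-XII replicate 1, 585 for VI-VIII replicate 1, 995 for VIII-X replicate 1 and 712 for II/III-VI replicate 2.

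**Figure D2:**
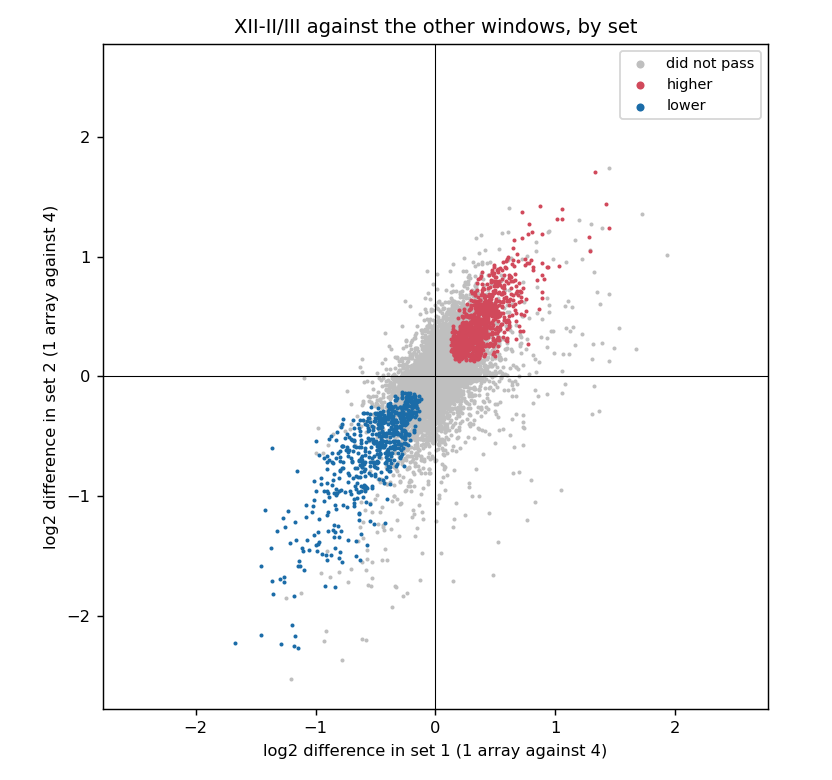
Log2 difference of the XII-II/III array from the mean of the 4 other arrays of its set, in set 1 (horizontal) and set 2 (vertical), with 1 point per gene tested; red and blue points were called higher (947) and lower (636), grey points did not pass. Called genes lie where both sets share a sign, and some grey genes moved by over 1 in 1 set alone.

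The called genes were sorted by the windows with their highest and lowest means. Among the 947 higher genes, the highest window mean was in XII-II/III for 651 (68.7%) and in X-XII for 251. Of those 651, 613 (94.2%) had X-XII as the next highest window. The lowest mean fell in VI-VIII for 740 (78.1%) of the higher genes. Among the 636 lower genes, the minimum was in X-XII for 356 (56.0%) and in XII-II/III for 238 (37.4%), and the maximum was in VI-VIII for 455 (71.5%). In both sets the XII-II/III array lay above the 4 others for 1047 of all genes tested (7.29%), 430 of them among the 947. It lay below them for 575 (4%), 155 of them among the 636. Were the order of the arrays random and unrelated between the sets, about 4% of genes would lie on each side. The share below was thus about that of a random order, and the share above was larger. Neither share was tested against a random order.

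The list of meiotic and mitotic division genes had 38 members, of which 37 were listed in the arrays and 37 passed the filter. Of these, 13 rose and 0 fell, beside 6.59% of all genes tested that rose. The median difference of the list was 0.33, and that of all genes tested was 0.01. Against X-XII alone the median difference of the list was 0.13, and 0 of its genes were called. This list and those below were chosen with earlier results of these data known. Their shares beside those of all genes are therefore descriptions and not tests. The 13 became 0 without either XII-II/III array, 6 without VI-VIII replicate 1, 7 without VIII-X replicate 2, and 8 without X-XII replicate 1, II/III-VI replicate 2 or VI-VIII replicate 2. The kinase Cdk1, whose activity with cyclin B drives a cell into division, rose by 0.85 ± 0.087 (SE, n = 2 arrays against 8, limma adjusted p = 0.0197). Its level was 12.02 and 12.06 in XII-II/III, 11.51 and 11.76 in X-XII, 11.44 and 11.31 in VIII-X, 10.81 and 10.80 in VI-VIII, and 11.05 and 10.82 in II/III-VI. Both XII-II/III arrays lay above all 8 others.

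Promoters of the division genes were searched for 2 motifs. These searched were the cell cycle genes homology region, called CHR here (TTTGAA), and the CCAAT box (CCAAT), both named in textbooks for late cell cycle promoters, on both strands of 300 bases, from 250 before to 50 after the start, in RefSeq's GRCm38.p6 promoter table. A promoter was matched by symbol for 27 of the 37 division genes tested and for 11515 of the genes tested. The CHR letters occurred in 11 of the 27, against 12.2% of the 11515 and 18.1% of all 27025 promoters. The CCAAT letters occurred in 21 of the 27, against 37.9% of the 11515, and both motifs together in 11 of the 27, against 5.06%. Of the 12 called division genes with a promoter, 5 held both, beside 11 of all 27. CHR occurred in 11.6% of the 767 higher genes with a promoter and in 17.3% of the 508 lower ones. Both motifs occurred in 5.22% and 8.27% of them. A link between the motifs and the rise was not tested. Below are 3 of the promoters with both, shown because these genes rose and belong to different steps of division, the kinase Cdk1, the protease separase (Espl1) and borealin (Cdca8), a subunit of the chromosomal passenger complex. Each runs 5′ to 3′ from 200 bases before to 30 after the table's start, with CHR and CCAAT letters of either strand in capitals, at chr10:69352883-69353112 on the minus strand, chr15:102296093-102296322 on the plus strand and chr4:124936888-124937117 on the minus strand.
Cdk1: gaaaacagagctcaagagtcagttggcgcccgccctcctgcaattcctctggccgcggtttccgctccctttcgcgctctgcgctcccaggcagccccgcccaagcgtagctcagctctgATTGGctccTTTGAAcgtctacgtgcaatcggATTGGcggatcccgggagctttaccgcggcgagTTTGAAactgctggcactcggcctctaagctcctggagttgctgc
Espl1: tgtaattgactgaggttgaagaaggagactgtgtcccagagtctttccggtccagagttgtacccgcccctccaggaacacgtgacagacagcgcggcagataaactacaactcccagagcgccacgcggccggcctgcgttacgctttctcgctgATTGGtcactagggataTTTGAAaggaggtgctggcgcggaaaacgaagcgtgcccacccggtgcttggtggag
Cdca8: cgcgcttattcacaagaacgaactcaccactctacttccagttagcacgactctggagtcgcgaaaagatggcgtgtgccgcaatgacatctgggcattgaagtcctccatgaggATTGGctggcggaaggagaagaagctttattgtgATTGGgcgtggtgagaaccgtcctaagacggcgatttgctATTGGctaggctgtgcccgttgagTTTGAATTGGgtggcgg
The Cdk1 stretch holds 2 CHR and 2 CCAAT matches, that of Espl1 1 and 1, and that of Cdca8 1 and 4, where the CHR match overlaps 1 CCAAT match.

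The chromosomal passenger complex, which corrects the attachment of chromosomes to the spindle, was represented by Aurkb, Aurkc, Birc5, Cdca8 and Incenp. Aurkb, its kinase in dividing cells generally, was at 11.73 and 11.90 in XII-II/III, 11.63 and 11.83 in X-XII, 11.47 and 10.75 in VIII-X, 10.29 and 9.94 in VI-VIII, and 10.62 and 10.45 in II/III-VI. It rose by 0.94 ± 0.18 (SE, limma adjusted p = 0.0289), although its replicate 1 in XII-II/III lay below X-XII replicate 2. Aurkc, the germ cell kinase of the complex, rose by 0.64 ± 0.14, at 11.53 and 11.62 in XII-II/III and 11.30 and 11.56 in X-XII, so these windows overlapped. Cdca8 rose by 0.57 ± 0.079 and Birc5 (survivin) by 0.46 ± 0.070. Incenp, the scaffold, differed by 0.51 ± 0.15 and missed the threshold (limma adjusted p = 0.0819).

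Espl1, the protease that cleaves cohesin, was at 11.35 and 11.41 in XII-II/III, 11.04 and 11.17 in X-XII, 10.81 and 10.32 in VIII-X, 10.53 and 10.35 in VI-VIII, and 11.02 and 10.71 in II/III-VI, a rise of 0.63 ± 0.12 with no overlap between XII-II/III and the rest. Its inhibitor securin (Pttg1) rose by 0.49 ± 0.088, the centromeric cohesin protector Sgo2a by 0.52 ± 0.078 and the checkpoint kinase Bub1b by 0.54 ± 0.085. The centrosome kinases Aurka and Nek2 rose by 0.71 ± 0.14 and 0.55 ± 0.091, and the cyclin Ccne1, which acts at the entry into DNA replication, by 0.21 ± 0.047. Ccne1 lost its call in each of 8 fits that left out an array of another window, and kept it in 5 of 10 other alternatives.

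The kinase Plk1 was at 12.92 and 13.14 in XII-II/III and at 13.14 and 12.92 in II/III-VI, so the windows overlapped, and its difference of 0.52 ± 0.22 had a limma adjusted p of 0.199. Ccnb2, a B-type cyclin, differed by 0.04 ± 0.076 and Ccna1, the germ cell A-type cyclin, by 0.42 ± 0.19. Ccnb3, a cyclin of meiotic cells, had the largest rise on the list, 1.22 ± 0.16, from levels under the filter of 8.26 in VI-VIII (6.91 and 7.17) and II/III-VI (7.06 and 7.19). It was as high in X-XII (9.23 and 9.40) as in XII-II/III (9.36 and 9.23), and 9.12 and 8.51 in VIII-X.

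**Figure D3:**
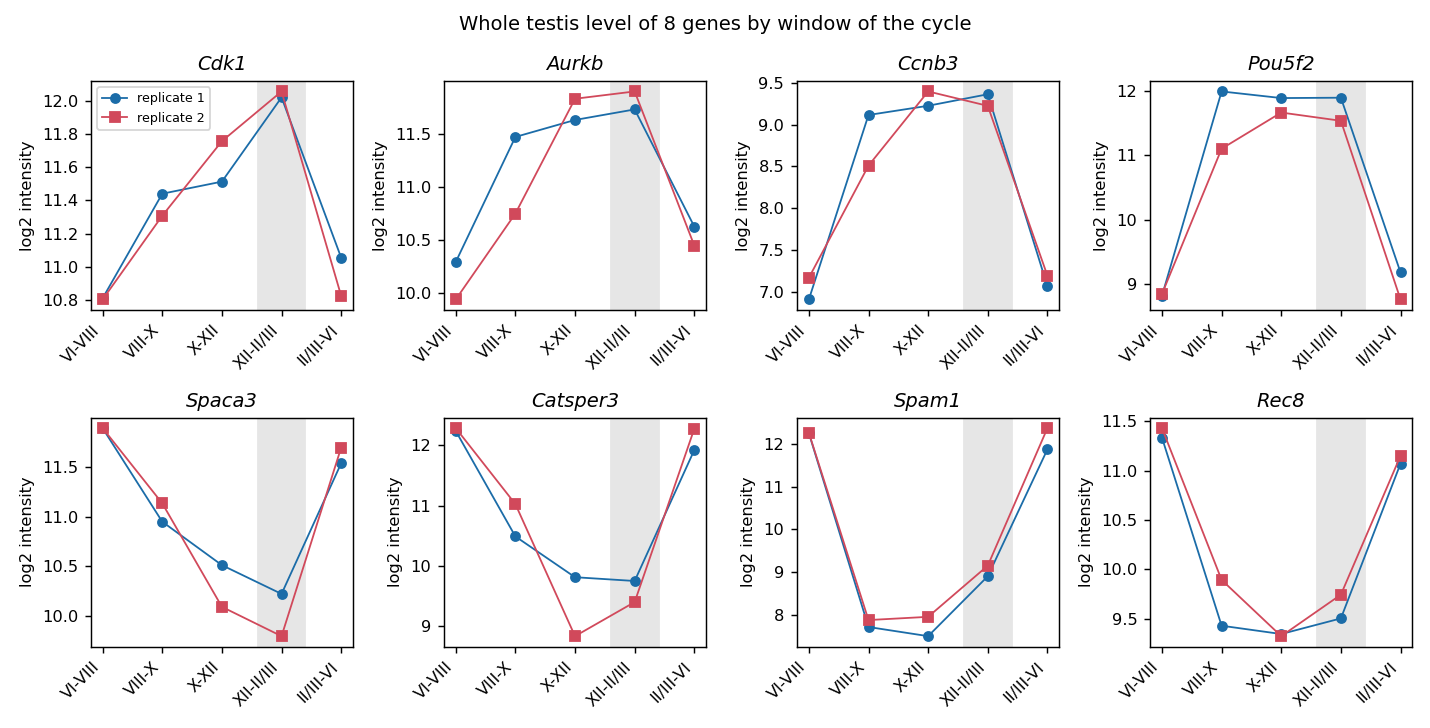
Log2 intensity of 8 genes (vertical) in the 5 windows in cycle order (horizontal), with 1 line per replicate set and XII-II/III shaded. Cdk1 peaks in the shaded window in both sets (12.02 and 12.06), while Ccnb3, Pou5f2, Catsper3, Spam1 and Rec8 have already changed by X-XII.

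Among 28 pachytene and diplotene spermatocyte genes, all tested, 3 rose and 1 fell, beside 6.59% and 4.43% of all genes tested, with a median difference of 0.03. Pou5f2, a germ cell POU-domain factor, rose by 1.43 ± 0.15 (SE, limma adjusted p = 0.0197). Its levels were 11.89 and 11.53 in XII-II/III, 11.89 and 11.66 in X-XII, and 11.99 and 11.10 in VIII-X, against 8.82 and 8.85 in VI-VIII and 9.18 and 8.76 in II/III-VI. It was therefore high over 3 windows and low over 2. Mybl1, a regulator of pachytene transcription, rose by 0.33 ± 0.051 and Tdrd6, a chromatoid body protein, by 0.23 ± 0.046. Crem, an activator of spermatid genes, fell by 0.21 ± 0.043. With all 20 arrays in the fit Mybl1, Tdrd6 and Crem lost their call, at limma adjusted p of 0.133, 0.193 and 0.0510. Tdrd6 kept its call in 6 of 10 other alternatives, and Pou5f2 in all 10.

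Of 14 tested members of the synaptonemal complex and meiotic cohesin list, out of 16, 0 rose and 1 fell, the cohesin subunit Rec8, beside 6.59% and 4.43% of all genes tested. Rec8 was at 9.50 and 9.74 in XII-II/III, 9.34 and 9.32 in X-XII, and 9.43 and 9.89 in VIII-X, against 11.33 and 11.43 in VI-VIII and 11.07 and 11.15 in II/III-VI. It fell by 0.75 ± 0.091 (SE, limma adjusted p = 0.0197), with VIII-X and XII-II/III overlapping. Sycp1, a filament of the complex, differed by -0.16 ± 0.083 and the cohesin Stag3 by 0.09 ± 0.044. Of 22 tested recombination genes, out of 29, 2 rose and 2 fell, beside the same shares. Here and in the lists that follow, all counts became 0 without either XII-II/III array. The 2 that rose became 0 without X-XII replicate 1 and 1 without II/III-VI replicate 1, VIII-X replicate 1, II/III-VI replicate 2, VI-VIII replicate 2 or VIII-X replicate 2, and the 2 that fell became 1 without VI-VIII replicate 1, VIII-X replicate 1, X-XII replicate 1, VI-VIII replicate 2 or VIII-X replicate 2. Tex15 and Msh4, both needed for repair of meiotic breaks, fell by 0.67 ± 0.078 and 0.23 ± 0.045, and Terb1, which ties telomeres to the nuclear envelope, rose by 0.45 ± 0.069. The other riser was Gm960, with 0.28 ± 0.059.

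The DNA replication list held 25 genes, of which 24 were tested, with 3 rises and 1 fall, beside 6.59% and 4.43% of all genes tested, and a median of -0.02. The 3 became 0 without VI-VIII replicate 1 or VIII-X replicate 2, and 1 without VIII-X replicate 1, II/III-VI replicate 2 or VI-VIII replicate 2. Cdc6, which loads the replicative helicase, was above the other windows in both sets and rose by 0.42 ± 0.066, Rrm1, a subunit of ribonucleotide reductase, by 0.45 ± 0.10, and Gins2 by 0.33 ± 0.074. Gins2 lost its call in each of 8 fits that left out an array of another window. Mcm3, part of the helicase itself, fell by 0.36 ± 0.064.

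Of the 18 lists, the acrosome list had the most members that fell. The acrosome is the enzyme-filled cap that spermatids build and sperm release at the egg. Of 31 tested members, out of 32, 12 fell and 1 rose, beside 4.43% of all genes tested that fell, and the median difference was -0.45. Against X-XII alone the median difference of the list was -0.02, and 0 of its genes were called. The 12 became 0 without either XII-II/III array, 3 without VI-VIII replicate 1 or II/III-VI replicate 2, 4 without VIII-X replicate 2, 5 without VI-VIII replicate 2, and 7 without X-XII replicate 1 or II/III-VI replicate 1. Spaca3, an acrosomal lysozyme-like protein, was at 10.22 and 9.80 in XII-II/III, 10.51 and 10.09 in X-XII, 10.95 and 11.13 in VIII-X, 11.89 and 11.89 in VI-VIII, and 11.54 and 11.70 in II/III-VI. It fell by 1.20 ± 0.14 (SE, limma adjusted p = 0.0197) and was the lowest array of each set, although X-XII replicate 2 lay under XII-II/III replicate 1.

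Spam1, the sperm surface hyaluronidase, had the largest difference from II/III-VI among the 31 tested acrosome genes. Its level was 8.91 and 9.16 in XII-II/III, 7.51 and 7.96 in X-XII, 7.73 and 7.89 in VIII-X, and 12.25 and 12.25 in VI-VIII, and it stood at 11.87 and 12.36 in II/III-VI. It fell by 0.94 ± 0.097 against the other 4 windows together, while both XII-II/III arrays lay above the 4 arrays of X-XII and VIII-X. The difference from X-XII was 1.29 ± 0.12, which missed the threshold (limma adjusted p = 0.472), and that from II/III-VI was -3.08 ± 0.12 (limma adjusted p = 0.000668). The other 10 that fell were Eqtn (equatorin, a difference of -1.63 ± 0.38), Spaca5 (-1.52 ± 0.27), Dcst1 (-1.36 ± 0.28), Spaca1 (-1.27 ± 0.27), Spaca4 (-1.14 ± 0.24), Dcst2 (-0.86 ± 0.14), Lyzl4 (-0.76 ± 0.15), Spaca7 (-0.51 ± 0.063), Fam170b (-0.45 ± 0.095) and Izumo3 (-0.33 ± 0.074). The XII-II/III mean of Spaca5 was under the filter of 8.26. Spaca1, Spaca5, Dcst2 and Spam1 had their lowest window mean in X-XII, and the others that fell had it in XII-II/III. Dcst1 and Dcst2 are sperm membrane proteins needed at fertilization. Spata16, needed for the acrosome to form, rose by 0.20 ± 0.046. Its mean was 13.16 in both XII-II/III and X-XII, and it kept its call in 6 of 10 other alternatives.

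Of 16 tested sperm ion channel genes, out of 20, 4 fell and 3 rose, beside 4.43% and 6.59% of all genes tested. CatSper is the calcium channel of the sperm tail. Among its pore-forming subunits, Catsper3 fell by 1.54 ± 0.27, Catsper1 by 1.08 ± 0.26 and Catsper4 by 0.89 ± 0.19, and Catsper2 differed by 0.24 ± 0.098 without passing the threshold (limma adjusted p = 0.175). Catsper1 lost its call in each of 8 fits that left out an array of another window. The auxiliary subunits Catspere2 and Catsperb rose by 0.52 ± 0.083 and 0.32 ± 0.061. Catsper3 was at 9.75 and 9.40 in XII-II/III, 9.81 and 8.83 in X-XII, 10.49 and 11.02 in VIII-X, 12.24 and 12.29 in VI-VIII, and 11.92 and 12.28 in II/III-VI, so XII-II/III overlapped X-XII and lay under the other 3 windows. Kcnu1, the sperm potassium channel, fell by 0.77 ± 0.14 and Slc9b1, a sodium and proton exchanger, rose by 0.32 ± 0.075. With all 20 arrays in the fit the 3 that rose lost their call, with limma adjusted p of 0.428 for Catsperb, 0.0753 for Catspere2 and 0.149 for Slc9b1, and the list had 0 higher and 6 lower genes. The 4 lower became 0 without VI-VIII replicate 1 or II/III-VI replicate 2, 1 without X-XII replicate 1, VI-VIII replicate 2 or VIII-X replicate 2, and 2 without II/III-VI replicate 1 or VIII-X replicate 1. The 3 higher became 0 without X-XII replicate 1, II/III-VI replicate 2 or VIII-X replicate 2.

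Of 40 flagellar genes 39 were tested, and of these 6 rose and 2 fell, beside 6.59% and 4.43% of all genes tested, with a median of 0.03. With all 20 arrays in the fit 2 were higher, and Dnah1, Dnah8, Dnah17, Cfap44 and Cfap65 lost their call, at limma adjusted p of 0.344, 0.372, 0.457, 0.367 and 0.322. The 6 became 0 without VI-VIII replicate 1, X-XII replicate 1 or VIII-X replicate 2, 1 without VIII-X replicate 1, and 3 without II/III-VI replicate 2 or VI-VIII replicate 2. The risers were the outer and inner arm dynein heavy chains Dnah17 (0.36 ± 0.067), Dnah1 (0.34 ± 0.055) and Dnah8 (0.30 ± 0.061), and the axonemal assembly genes Ccdc40 (0.50 ± 0.11), Cfap65 (0.24 ± 0.044) and Cfap44 (0.23 ± 0.051). Spag6, of the central pair, fell by 0.79 ± 0.11 and the tektin Tekt2 by 0.47 ± 0.11. Akap4, the main protein of the fibrous sheath, differed by -0.00 ± 0.038. The Dnah family as a whole, looked at after these values were seen, had 13 tested members, of which 7 rose and 1, Dnah3, fell by 0.90 ± 0.21, with a median of 0.35, and no test was made of the family. Dnah2 rose by 0.71 ± 0.13 and Dnah12 by 0.52 ± 0.064.

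Genes of spermatid chromatin condensation, which exchange histones for transition proteins and then protamines, gave 4 falls and 1 rise among 24 tested, out of 27, beside 4.43% and 6.59% of all genes tested. The 4 became 2 without VI-VIII replicate 1 or VIII-X replicate 2, and with all 20 arrays in the fit. The testis-specific kinases Tssk5 and Tssk4 fell by 0.95 ± 0.12 and 0.73 ± 0.11, the testis histone H2bc1 by 0.35 ± 0.054 and the chromatin remodeller Cecr2 by 0.31 ± 0.063, and the histone variant H2al2a rose by 0.36 ± 0.078. The transition protein Tnp1 was at 13.26 and 13.31 in XII-II/III, 13.37 and 13.26 in X-XII, 13.37 and 13.09 in VIII-X, 10.22 and 11.40 in VI-VIII, and 12.28 and 10.61 in II/III-VI. It was high in 3 windows and low in 2, and its difference of 1.08 ± 0.46 did not pass (limma adjusted p = 0.185). Tnp2 differed by 0.76 ± 0.42 and the protamine Prm1 by 0.14 ± 0.069, neither of them called.

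**Figure D4:**
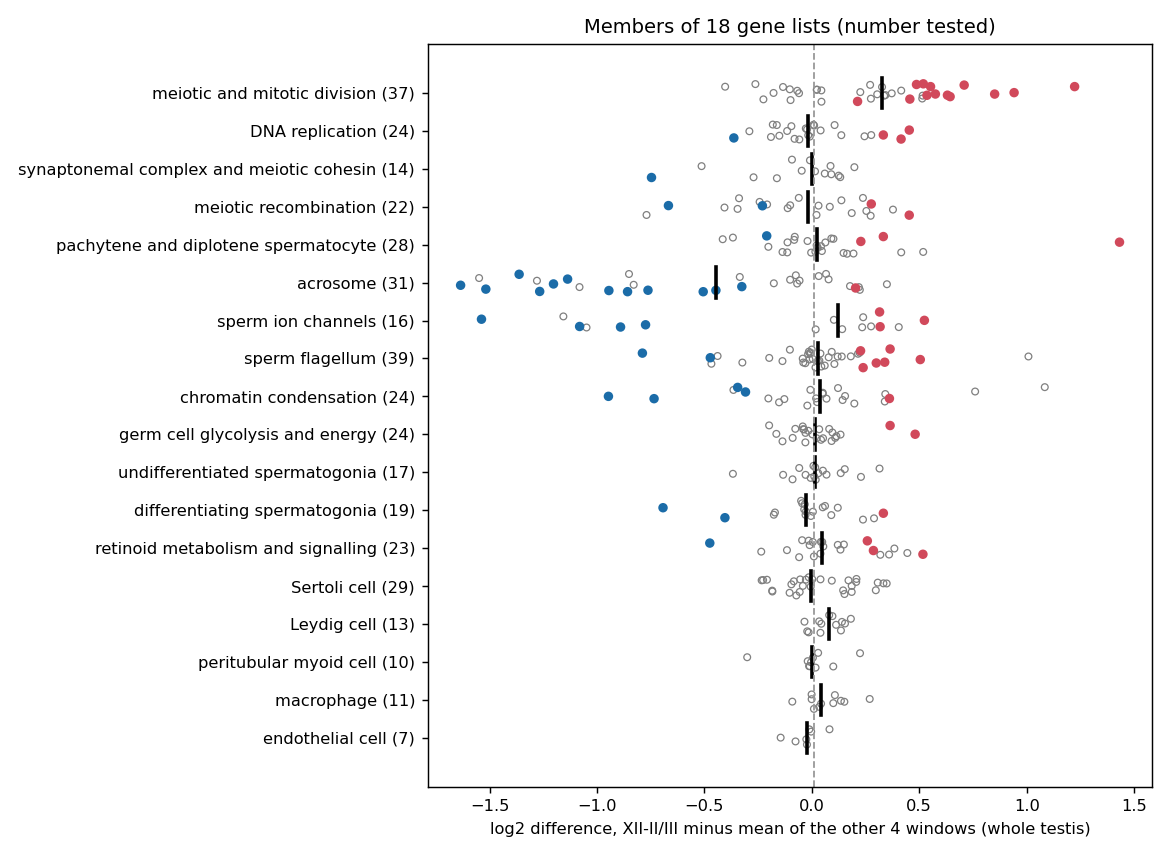
Log2 difference of XII-II/III from the mean of the other 4 windows (horizontal) for each tested member of 18 gene lists (rows, number tested in parentheses); red and blue points were called higher and lower, open points did not pass, black bars are list medians and the dashed line is the median of all genes tested (0.01). Division genes reach to the right (median 0.33) and acrosome genes to the left (median -0.45), and 6 rows hold no called gene.

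In 4 further lists the called shares are read beside 6.59% higher and 4.43% lower of all genes tested. Among 24 tested glycolysis and energy genes, the phosphofructokinase Pfkp rose by 0.48 ± 0.11 and the glucose transporter Slc2a3 by 0.36 ± 0.082, with 0 falls. Both rises lost their call without VI-VIII replicate 1, VIII-X replicate 1, X-XII replicate 1, II/III-VI replicate 2 or VIII-X replicate 2. Of 19 tested genes of differentiating spermatogonia, Esx1 and the cyclin Ccnd3 fell by 0.69 ± 0.11 and 0.40 ± 0.056, and Prss50 rose by 0.33 ± 0.060. Of 17 tested genes of undifferentiated spermatogonia, out of 23, limma called 0, with 3 at an unadjusted p under 0.05. In the retinoid list, 3 of 23 tested genes rose and 1 fell. The 3 became 0 without VI-VIII replicate 1, X-XII replicate 1 or VIII-X replicate 2, and 1 without VIII-X replicate 1 or II/III-VI replicate 2. Lrat, which stores retinol as ester, was at 9.18 and 9.31 in XII-II/III, 8.82 and 8.94 in X-XII, 8.95 and 9.03 in VIII-X, 10.58 and 10.30 in VI-VIII, and 10.47 and 10.66 in II/III-VI. It fell by 0.47 ± 0.090 against the 4 windows together, while both XII-II/III arrays lay above those of X-XII and VIII-X. The receptor Rxrg rose by 0.52 ± 0.12, Rdh11, a retinal reductase, by 0.29 ± 0.055 and Dgat1 by 0.26 ± 0.049.

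Markers of somatic cells were not called by limma in either direction, for 29 tested Sertoli, 13 Leydig, 10 myoid, 11 macrophage and 7 endothelial genes, of which 7, 1, 2, 0 and 0 had an unadjusted p under 0.05. Their median differences were -0.01, 0.08, 0.00, 0.04 and -0.02. The log2 of the summed level of the Sertoli markers was 15.93 and 16.01 in XII-II/III and between 15.92 and 16.09 in the other windows, and that of the Leydig markers was 14.96 and 15.14 against 14.77 to 15.20. The defining germ cell markers were present in all arrays, with Sycp3 of spermatocytes between 12.15 and 12.50, Prm1 of spermatids between 13.31 and 13.96 and Zbtb16 of spermatogonia between 9.08 and 9.75.

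Outside the lists, the genes with the largest rises that were above all 4 other windows in both sets, or below them for falls, were named by rule, 15 in each direction. Zbtb42, a zinc finger protein, was at 12.42 and 12.20 in XII-II/III, 12.16 and 12.16 in X-XII, 12.14 and 11.60 in VIII-X, and 10.05 and 9.81 in VI-VIII, with a mean of 10.56 ± 0.78 (SD, n = 2) in II/III-VI, a rise of 1.18 ± 0.19 (SE, limma adjusted p = 0.0239). Both its XII-II/III arrays were above all 8 others, by a small margin over X-XII. The choline dehydrogenase Chdh rose by 1.15 ± 0.22, the stress kinase Mapk11 by 1.05 ± 0.21, Card6 by 0.92 ± 0.16, the growth factor Pgf by 0.90 ± 0.20, the thioesterase Them4 by 0.86 ± 0.11, Pcyox1l by 0.84 ± 0.10, Spdye4a by 0.80 ± 0.18, Arhgef39 by 0.79 ± 0.14, Jagn1 by 0.78 ± 0.14, Kctd9 by 0.76 ± 0.14 and Alkbh4 by 0.75 ± 0.14. The olfactory receptor gene Olfr1280 had the largest value, 1.52 ± 0.27, with levels of 6.77 and 6.30 in VI-VIII, under the filter, and 9.51 and 9.28 in XII-II/III. Olfactory receptors are a large family of similar sequences, and its value is reported as uncertain. Cdk1 and Aurkb complete the 15.

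Among the falls, 4933404G15Rik had the largest difference, -1.76 ± 0.32 (SE, limma adjusted p = 0.0273), at 9.22 and 8.45 in XII-II/III, 9.31 and 8.54 in X-XII, 10.13 and 10.69 in VIII-X, 11.78 and 11.99 in VI-VIII, and 10.83 and 11.50 in II/III-VI. Its difference from X-XII alone was -0.09 ± 0.40. Cldn34c4, of the claudin family, had a difference of -1.71 ± 0.39, the sphingomyelin synthase Sgms2 of -1.67 ± 0.39, the sperm metalloprotease family member Adam20 of -1.51 ± 0.23, 4930432E11Rik of -1.36 ± 0.20, the lysozyme-like Lyzl1 of -1.34 ± 0.32 and Pdilt, a testis chaperone of the disulfide isomerase family, of -1.30 ± 0.29. For the carboxypeptidase Cpa6 it was -1.25 ± 0.19, for Adtrp -1.22 ± 0.28, for Apobec4 -1.21 ± 0.19, for 4930568D16Rik -1.18 ± 0.23, for 4930562F07Rik -1.17 ± 0.25, for the potassium channel subunit Kcne3 -1.17 ± 0.17 and for Dapl1 -1.16 ± 0.25. The XII-II/III means of Cpa6 and 4930562F07Rik were under the filter of 8.26. Spaca3 is the remaining gene of this group. Adam genes as a family, looked at after the values were seen, had 32 tested members, of which 8 fell and 2 rose, beside 4.43% and 6.59% of all genes tested. The family's median difference was 0.01, as over all genes tested. Adam24 fell by 1.05 ± 0.16, while Adam18 and Adam30 rose by 0.33 ± 0.065 and 0.45 ± 0.083. The Gtf, Zfp, Kif, Cdk and Ttll families were looked at in the same way. In that order, 7 of 21, 22 of 272, 6 of 36, 5 of 26 and 1 of 12 rose, and 0, 11, 1, 0 and 4 fell. None of these families was tested.

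**Figure D5:**
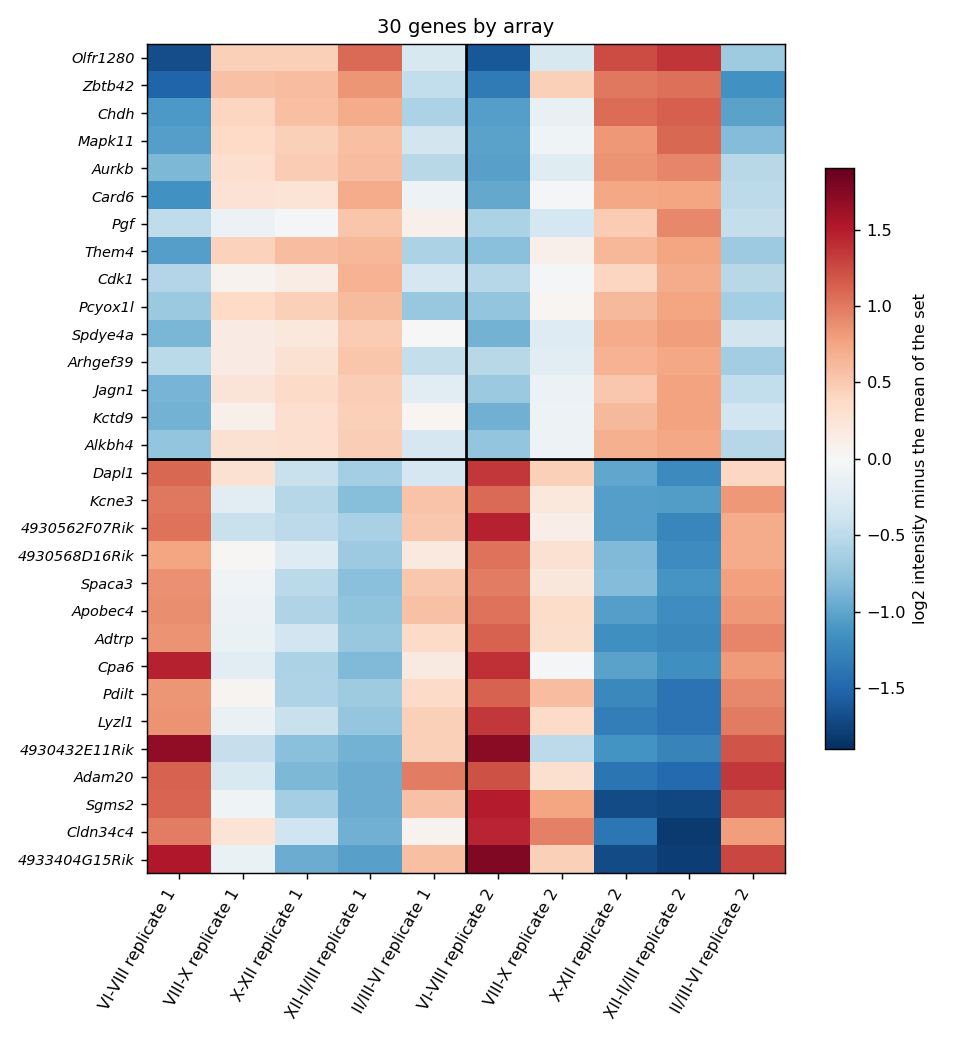
Log2 intensity minus the mean of the set (colour) in each of the 10 whole testis arrays (columns, in cycle order within each set) for the 15 genes with the largest rises and the 15 with the largest falls named by rule (rows). The XII-II/III columns are at the extreme of each set by the rule, and the X-XII columns next to them have the same colour in 29 of the 30 rows of set 1 and in all 30 of set 2.

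X-linked genes were also looked at after the values were seen. Of 385 tested X-linked genes, as placed by RefSeq on GRCm38.p6, 8 (2.08%) rose and 32 (8.31%) fell, beside 6.82% and 4.27% of 11122 autosomal genes. Ccnb3 is among the risers and Spaca5 and Esx1 among the fallers. The difference between the chromosomes was not tested.

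Against X-XII alone, the preceding window, limma called 0 genes, and 497 had an unadjusted p under 0.05, 374 of them higher and 123 lower in XII-II/III. The lowest adjusted p was 0.472. This does not show that the windows were alike. Differences from X-XII had lower and upper quartiles of -0.055 and 0.057, and those from II/III-VI of -0.106 and 0.182. The median SE was 0.077 in both comparisons. For Cdk1 the difference from X-XII was 0.40 ± 0.11. Mroh9 stood 1.07 ± 0.19 above X-XII. Neither was called.

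Against II/III-VI, the following window, limma called 4006 genes (27.9%), 2263 higher (15.8%) and 1743 lower (12.1%), and 283 rose and 335 fell by at least 1. The count was 1494 without II/III-VI replicate 2, 1886 without XII-II/III replicate 1 and 2021 without XII-II/III replicate 2. The serine protease gene Prss52 was the farthest above II/III-VI, at 13.09 and 12.59 in XII-II/III against 8.90 and 8.73, a difference of 4.02 ± 0.57 (SE, limma adjusted p = 0.00533). Gm136 was higher by 3.51 ± 0.76, the cystatin Cst13 by 3.49 ± 0.65 over a II/III-VI mean of 7.48, under the filter of 8.26, Trp53tg5 by 3.19 ± 0.51 and Fam71b by 3.09 ± 0.52. All 5 were as high or higher in VIII-X and X-XII, and none of the 5 was called against the 4 windows together. In the other direction, Ppp4r3c-ps was at 6.70 and 7.14 against 9.98 and 10.16 in II/III-VI, a difference of -3.16 ± 0.14, followed by Spam1, 1700001P01Rik (-2.67 ± 0.45), Mroh9 (-2.64 ± 0.19) and Serpina3a (-2.62 ± 0.30). The XII-II/III means of Ppp4r3c-ps (6.92) and 1700001P01Rik (7.89) were under the filter, which both passed through other windows, so the sizes of their differences are uncertain, as is that of Cst13. In the lists, 12 division genes were higher and 4 lower than in II/III-VI, and 3 acrosome genes were higher and 17 lower. The 4 lower division genes were Cdc25c, an activator of Cdk1 (-0.72), Ccna2 (-0.51), Wee1, an inhibitor of Cdk1 (-0.42), and Sgo1 (-0.41). This comparison and the main one share the XII-II/III and II/III-VI arrays.

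The IP samples of the same homogenates gave another reading of the same testes, not an independent one. Among 13370 genes tested there, 13 were higher (0.0972%) and 190 lower (1.42%) in XII-II/III, 1.52% in all. Of the 947 genes that rose in the whole testis, 914 were tested in IP, 847 (92.7%) had the same sign, with a median of 0.13, and 2 were called higher. Of the 636 that fell, 586 were tested, 530 (90.4%) had the same sign, with a median of -0.39, and 134 were called lower. The median over all 13370 genes was 0.03, and the same-sign share over all genes tested in both is not given here. Of the division list 0 of 33 tested genes were called in IP by limma, and Cdk1 differed by 0.34 there. Of the acrosome list 8 of 31 were called lower. Catsper3 fell by 1.41 in IP (limma adjusted p = 0.00729) and Spam1 by 1.37 (limma adjusted p = 0.0231). The IP was directed at Leydig cell polysomes, and which cells these IP values come from was not tested.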

How the data were processed

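Whole testis RNA of synchronized mouse testes had been amplified from 100 ng, labelled and hybridised to GeneChip ST 1.0 arrays, per the labels' protocols. The authors deposited linear probe set intensities. Per the submitters' processing notes they come from RMA. Its version is not given in the sources used here, nor its software. The deposited intensity tables list 26006 probe sets in whole testis set 1 and 26013 in set 2. Normalization within a set removes shared shifts of an array, so all differences are relative to the other genes.

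Of 28856 probe sets, 21789 carried 1 gene symbol in the platform annotation, 1621 several and 5446 none, and only the first kind was used. For 927 genes with several probe sets, the one with the highest mean was kept. Intensities were taken as log2. Genes whose mean in some window passed the 25th percentile (8.26) were fitted with limma 3.58.1 in R 4.3.3, with window means and the replicate set as a block on the 10 whole testis arrays (4 residual degrees of freedom), and eBayes. The set stands for the replicate number. The contrasts were XII-II/III minus the mean of the 4 other windows, minus X-XII and minus II/III-VI, and the first was also fitted on the 10 IP arrays. P-values are two-sided, with Benjamini-Hochberg adjustment and a threshold of 0.05. On simulated data of 14368 genes for the first contrast, 47 of 50 genes raised by 1 and 47 of 50 lowered by 1 were recovered. So were 50 of 50 raised by 2 and 38 of 50 raised by 0.5, with 13 false calls. These shares do not carry over to genes of the data with a large spread. The median SE of the first contrast was 0.061, and Prss52, with a difference of 1.47 ± 0.45 (SE), was not called. The number of arrays limits the precision.

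The members and the 18 gene lists were chosen with earlier results of these data known, so the lists are described by counts and medians and not tested. Genes named are list members, the 15 largest rises and 15 largest falls beyond the 4 other arrays in both sets, and the 5 largest in each direction against each neighbour. Promoters came from RefSeq, GRCm38.p6. Alternatives were other scalings, filters, weights and priors, no replicate block, the IP arrays in the same fit, and each array left out.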

Additional observations from a re-analysis of the deposited data

How the results depend on the processing

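Against the other 4 windows, limma called 1583 genes. The count was 1325 with no replicate block, 1485 after quantile normalization (748 higher, 737 lower), 1598 after median centring (809 higher, 789 lower), and between 1344 and 2094 with other weights, filters, priors, probe set rules, offsets or all 20 arrays in the fit. The higher genes made up 50.4% of calls after quantile normalization and 50.6% after median centring. With the 8 other arrays as 1 group the count was 0 (609 at an unadjusted p under 0.05). Leaving out 1 array gave 0 to 1581. Where an XII-II/III array was left out, the lone array was assumed to vary like the other groups. Of the 99 called genes that are list members or were named by rule (the Dnah and Adam genes named only as family members were not followed), 20 kept their call in every fit without an array of another window, 55 in all 10 other alternatives with the window means, and 17 in both, among them Cdk1, Ccnb3, Cdca8, Pou5f2, Spaca3, Spam1 and Rec8, but all 99 lost it without either XII-II/III array. In the settings run, 0 of the 99 were called in the opposite direction. The division list had 11 to 16 higher genes in those 10 alternatives, 6 to 13 without an array of another window and 0 without an XII-II/III array, and the acrosome list had 9 to 17, 3 to 16 and 0 lower genes.

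Against X-XII the limma count was 0 in every setting, leaving out 1 array included (0 to 0), with 497 at an unadjusted p under 0.05 in the fit reported. Against II/III-VI it was 4006, 3412 with no replicate block, and 1494 to 3594 leaving out 1 array. In IP it was 203, 153 with no replicate block, 556 with array weights, 583 with all 20 arrays and 0 to 192 leaving out 1 array. The causes of these shifts were not tested. The number of arrays, 2 per window, limits the precision.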
